A study of Mus musculus with 2 samples.

Results

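The alpha and beta tubulin isotypes are the gene family whose products pair into the building block of microtubules. The members were the 10 genes listed by symbol as Tuba1a, Tuba1b, Tuba1c, Tuba4a, Tubb2a, Tubb2b, Tubb3, Tubb4b, Tubb5 and Tubb6, 10 of 17260 genes in the table, and all 10 were found. Their mRNA was measured in cultured fibroblasts prepared from mouse embryos at embryonic day 13.5 (MEFs). The control genotype was wild type (WT) and the other was labelled Ahi1-/-, with 1 library each. Both were of strain C57BL/6 and were cultured in DMEM with 10% fetal bovine serum, with no other treatment named. Ahi1 encodes a protein at the base of the primary cilium, a microtubule-based organelle. Which part of the gene was deleted, how many embryos were used and the passage number are not stated in the labels.

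A microtubule grows by adding dimers of 1 alpha and 1 beta tubulin. Mammals carry several genes for each, and the proteins differ mainly in their acidic C-terminal tails, which face outward and carry modifications such as removal of the last tyrosine and addition of glutamate chains. Tuba1b, Tuba1c, Tubb5, Tubb4b and Tubb6 are expressed in many tissues, Tuba1a and Tubb2b are abundant in the developing brain, and Tubb3 is widely used as a marker of neurons. Cells also adjust tubulin mRNA to the amount of free tubulin, because the mRNA is destroyed during translation when free dimers are in excess.

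The WT library held 19067504 expected counts and the library labelled Ahi1-/- 20820756. Ahi1 itself had 410 and 370 counts, so the label could not be checked on the deleted gene. Columns headed CON were read as WT and those headed EXP as Ahi1-/-, and each direction below follows that reading. With 1 library per genotype no test or p-value could be given, a difference is between 2 libraries rather than 2 genotypes, and the 95% intervals cover counting error only. All 10 fibroblast markers were present in both libraries, but 8 of them were higher by at least 2-fold in the library labelled Ahi1-/- (8075 and 21550 TPM summed). Col1a1, a collagen chain, had 1668 and 6825 TPM, Thy1, a surface protein, 16.3 and 1338 TPM, and Vim, which encodes vimentin, 4546 and 4710 TPM. Here TPM is a level corrected for transcript length and library size. All 6 contractile markers were higher by at least 2-fold in the library labelled Ahi1-/-, and they summed to 368 TPM in WT and 9588 TPM there. Of 12 proliferation markers, 10 were at least 2-fold lower there and 0 higher (2545 and 976 TPM summed). Of 5 epithelial markers, 4 were higher by at least 2-fold (67.2 and 100.2 TPM summed), among them Epcam with 2.12 and 6.96 TPM. The part of these marker shifts in the tubulin ratios was not tested. In RNA from a whole culture, fewer cells of a type and less RNA per cell cannot be told apart.

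By TPM, total tubulin mRNA was close between the libraries while its make-up differed. The 4 alpha genes summed to 4248 TPM in WT and 4135 TPM in the library labelled Ahi1-/-. For the 6 beta genes the sums were 2960 and 2713 TPM. Together the 10 genes held 0.721% and 0.685% of all TPM, and the summed level in the library labelled Ahi1-/- was 0.95 times that in WT. The ratio of alpha to beta was 1.44 in WT and 1.52 in the other library. Under this total, 6 members had more transcripts in the library labelled Ahi1-/- and 4 had fewer. The 4 lower members, Tuba1b, Tuba1c, Tubb4b and Tubb5, summed to 5274 TPM in WT and 3941 TPM in the other library, which was 73.2% and 57.6% of the 10-gene total. The 6 higher members summed to 1934 and 2906 TPM.

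**Figure D1:**
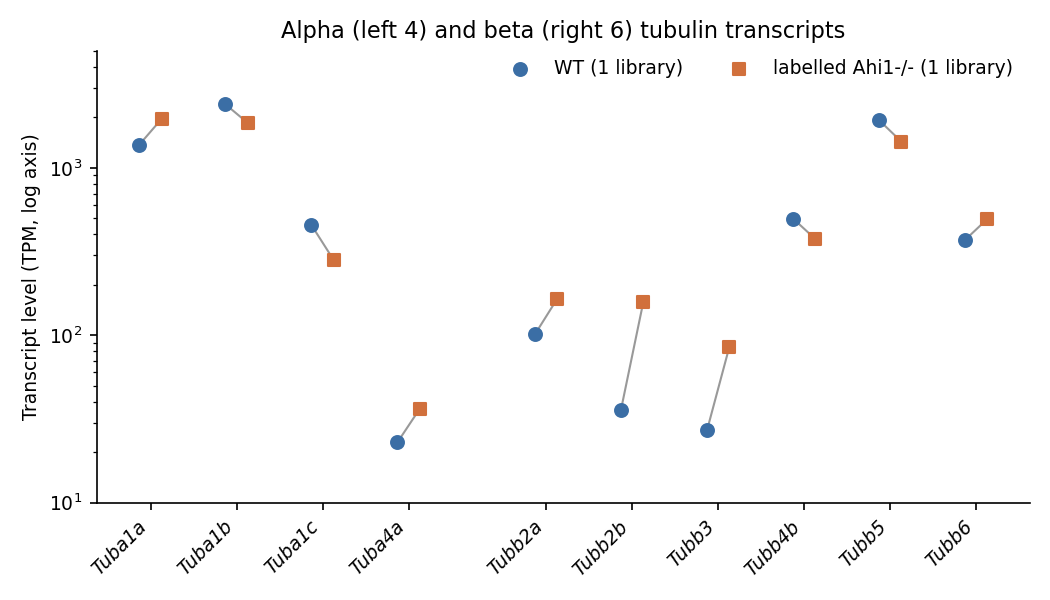
Level of each isotype in TPM on a log axis, with the WT library as circles and the library labelled Ahi1-/- as squares, 1 library each and so no error bars. Tuba1a and Tuba1b change places as the most abundant alpha isotype, and Tubb2b and Tubb3 have the steepest lines.

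Among the alpha genes, the 2 most abundant exchanged their order. Tuba1a had 1376 TPM in WT and 1965 TPM in the library labelled Ahi1-/- (19873 and 27716 counts). Its log2 ratio, from counts scaled to library size, was 0.47 (95% interval 0.44 to 0.49). Tuba1b, the main alpha isotype of dividing cells, had 2394 and 1852 TPM (33978 and 25662 counts), with a log2 ratio of -0.42 (-0.44 to -0.39). The level of Tuba1a was thus 0.575 times that of Tuba1b in WT and 1.06 times in the library labelled Ahi1-/-. By TPM, Tuba1a ranked 3 among the 10 members in WT against 1 in the library labelled Ahi1-/-, and Tuba1b ranked 1 and 2. Tuba1c had 455 and 281 TPM (8222 and 4951 counts) and was 1.68-fold lower, the lowest ratio of the 10 members. Tuba4a, whose product differs from most alpha tubulins in ending without the terminal tyrosine, was the least abundant member in both libraries, with 22.9 and 36.4 TPM (443 and 683 counts). Its log2 ratio of 0.61 had an interval of 0.44 to 0.79. Of the Tuba4a windows of 100 bases, 46.7% also lay in transcripts of Stk16, and reads of the 2 genes may not be told apart there.

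Tuba1a, Tuba1b and Tuba1c lie close together on chromosome 15, and the coding sequences of Tuba1a and Tuba1b were 98.3% identical, with 23 mismatched bases over 1356.

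Counts of such genes depend on how shared reads were divided. In windows of 100 bases, 38.4% of the Tuba1a transcript, 52.3% of Tuba1b and 53.4% of Tuba1c also occurred in another member. Over all annotated transcripts, pseudogenes included, the shares were 65.8%, 73.0% and 53.4%. The deposited counts of all 10 members were fractions in both libraries, 20 of 20 values. Over all genes, 65.1% of values in WT and 64.4% in the other library were whole numbers. Tubb3 and Tubb6, which shared 0 windows of 100 bases with another gene, also had fractions, so fractions do not track the sharing counted here. The labels do not state the read length, and the error of dividing shared reads is not in the intervals. The order of Tuba1a and Tuba1b in the library labelled Ahi1-/-, 1.06 to 1, is therefore uncertain.

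For the beta genes, the most abundant isotype was Tubb5 in both libraries. Tubb5, the beta tubulin of most dividing cells, had 1927 TPM in WT and 1433 TPM in the library labelled Ahi1-/- (46865 and 34022 counts), 1.39-fold lower. Tubb4b, a beta tubulin also used in cilia, had 498 and 375 TPM (7232 and 5325 counts), 1.37-fold lower. Tubb6, a more divergent beta tubulin, had 371 and 495 TPM (5885 and 7676 counts), with a log2 ratio of 0.37 (0.32 to 0.42). Tubb4b was above Tubb6 in WT and below it in the library labelled Ahi1-/-: the level of Tubb6 was 0.745 and 1.32 times that of Tubb4b. Neither Tubb5 nor Tubb6 shared a window of 100 bases with a transcript of another gene. Of the Tubb4b windows, 30.6% were shared, with pseudogenes and overlapping genes and with 0 other members.

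The 2 members at least 2-fold apart were Tubb2b and Tubb3, both higher in the library labelled Ahi1-/-. Tubb2b, a beta tubulin of developing neurons, had 36.0 TPM in WT and 159 TPM in the other library (631 and 2715 counts). It was 4.26-fold higher, with a log2 ratio of 2.09 (1.97 to 2.22). Tubb3 had 27.1 and 85.3 TPM (428 and 1318 counts) and was 3.05-fold higher, with a log2 ratio of 1.61 (1.45 to 1.77). The authors' shorter table lists these 2 members, with 17.7 and 69.6 FPKM for Tubb2b and 13.3 and 37.5 FPKM for Tubb3. It is from the same 2 libraries, and every gene above 0 in both was at least 2-fold apart, so the listing adds no separate evidence. Tubb2a, the close relative and neighbour of Tubb2b on chromosome 13, had 101 and 166 TPM (1481 and 2360 counts), with a log2 ratio of 0.66 (0.56 to 0.75). The level of Tubb2a was 2.82 times that of Tubb2b in WT and 1.04 times in the library labelled Ahi1-/-.

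Coding sequences of Tubb2a and Tubb2b were 96.5% identical. Their last 60 coding bases, which encode the tail and end with the stop codon, are shown because the 2 genes had different ratios in spite of that likeness. They are from GENCODE M21 transcripts, in the last exon. Both are on the minus strand of GRCm38, at chr13:34074468-34074527 for Tubb2a and chr13:34127471-34127530 for Tubb2b, and the capitals mark the 3 bases that differ. Each of the 3 is the last base of its codon and leaves the encoded amino acid the same, so these bases encode the same tail.
Tubb2a: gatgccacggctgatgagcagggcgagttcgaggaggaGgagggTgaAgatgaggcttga
Tubb2b: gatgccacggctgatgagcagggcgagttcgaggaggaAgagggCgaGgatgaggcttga
In windows of 100 bases, 35.9% of the Tubb2a transcript and 26.1% of Tubb2b occurred in another member, whereas 0 windows of Tubb3 occurred in a transcript of another gene.

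Neuronal markers were near 0 in WT and were led by 2 genes in the library labelled Ahi1-/-. The 13 markers summed to 1.24 TPM in WT, with 4 at 0 counts, and to 39.2 TPM in the other library, with 1 at 0. Gap43, a growth cone protein, had 0.34 and 25.5 TPM, and Stmn2, a neuronal stathmin that binds tubulin dimers, had 0.06 and 11.6 TPM. The other markers lay between 0 and 0.44 TPM in WT and between 0 and 0.59 TPM in the other library. Among them, Elavl4 had 0 counts in WT and 20 in the other library, Nefm 0 and 10, and Ina 0 and 8, while Rbfox3 had 0 and 1 counts, Elavl3 1 and 1, and Dcx 3 and 0. Gap43 and Stmn2 were the 2 markers with 50 counts in either library, and both were called higher, against 16.0% of all genes with that minimum. The part of these genes' source in the levels of Tubb2b and Tubb3 was not tested.

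Shares of each family's summed TPM give the make-up of the tubulin mRNA, and tubulin protein was not measured. Tuba1a held 32.4% of alpha TPM in WT against 47.5% in the library labelled Ahi1-/-, a difference of 15.1 percentage points. Tuba1b held 56.4% and 44.8%, Tuba1c 10.7% and 6.79%, and Tuba4a 0.540% and 0.880%. In the beta family Tubb5 held 65.1% in WT and 52.8% in the other library, a difference of -12.3 points. Tubb6 held 12.5% and 18.2%, and Tubb4b 16.8% and 13.8%. The largest relative differences of this family were in its minor isotypes. Tubb2b held 1.22% and 5.84% of beta TPM, Tubb3 0.914% and 3.14%, and Tubb2a 3.43% and 6.10%. These 3 together made up 5.56% of beta tubulin TPM in WT against 15.1% in the library labelled Ahi1-/-. Of all 10 genes, Tuba1a held 19.1% and 28.7% and Tuba1b 33.2% and 27.1%. By counts with no length correction Tuba1a held 15.9% (exact Clopper-Pearson interval 15.7 to 16.1) and 24.6% (24.4 to 24.9).

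**Figure D2:**
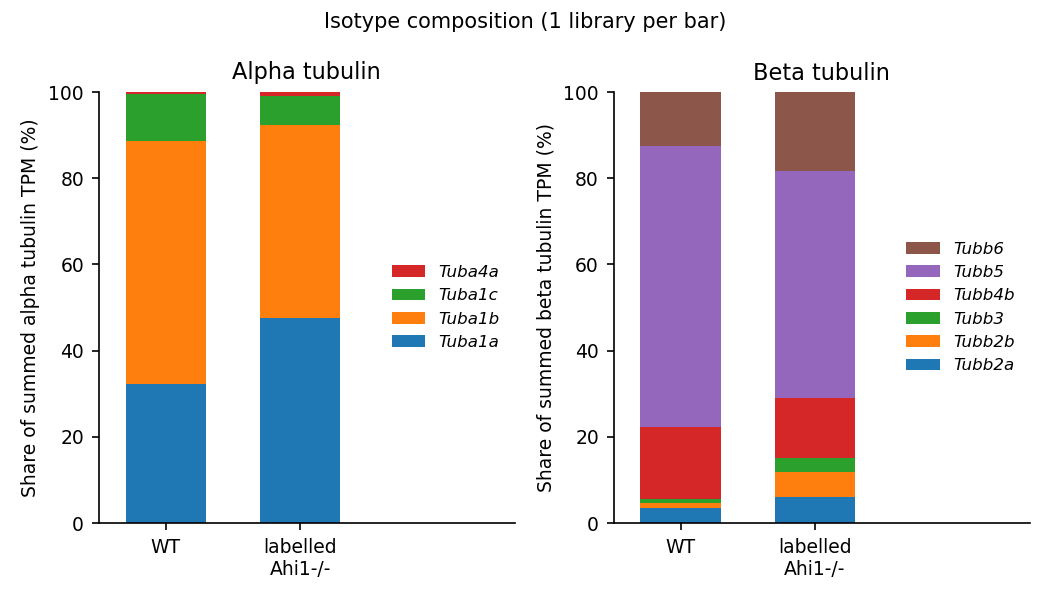
Stacked bars of each isotype's share of summed alpha (left) and beta (right) tubulin TPM, in percent, 1 library per bar. The Tuba1a segment takes 32.4% in WT against 47.5% in the library labelled Ahi1-/-, and Tubb5 remains the widest beta segment at 65.1% and 52.8%.

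Set against all genes, the ratios of the members were of ordinary size. A gene was called higher or lower at a difference of 2-fold or more, given 50 or more counts in the library where it was higher, and all 10 members met this minimum. Of the 10, 2 were higher and 0 lower, and 8 lay within 2-fold, as did 73.6% of all genes with that minimum. The interquartile range of those genes ran from -0.51 to 0.53 on the log2 scale, and 5 members lay outside it. By the same rule 16.0% of 12075 genes were higher and 10.3% lower. With 10 members, a count of 2 is near that background and is no result about the family. The median log2 ratio was 0.42 over the members and -0.04 over the 12075 genes. As a description of size, 8.59% of those genes had a ratio at least as high as Tubb2b, 10.6% at least as high as Tubb3 and 26.8% at least as high as Tuba1a. Ratios at least as low as that of Tuba1c were found in 16.3% of the genes. The counting intervals of all 10 members left out 0, and each member had at least 428 counts per library. At such counts an interval for counting error is narrow, and the share of all genes whose interval left out 0 is not given here.

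Median ratios differed between chromosomes, and several members lie on chromosomes whose median was not near 0. The median log2 ratio was -0.32 over chromosome 17, which carries Tubb5, and -0.40 over chromosome 8, which carries Tubb3. It was -0.18 for chromosome 15, with Tuba1a, Tuba1b and Tuba1c, and 0.28 for chromosome 1, with Tuba4a. With the chromosome median subtracted, the log2 ratio of Tubb5 was -0.15, that of Tubb3 2.01, that of Tuba1b -0.24 and that of Tuba4a 0.33. For Tubb2b on chromosome 13 it was 2.12. Each member kept its sign. The summed alpha log2 ratio, -0.10 from scaled counts, was 0.08 after this subtraction, and that of beta, -0.24, was 0.00.

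**Figure D3:**
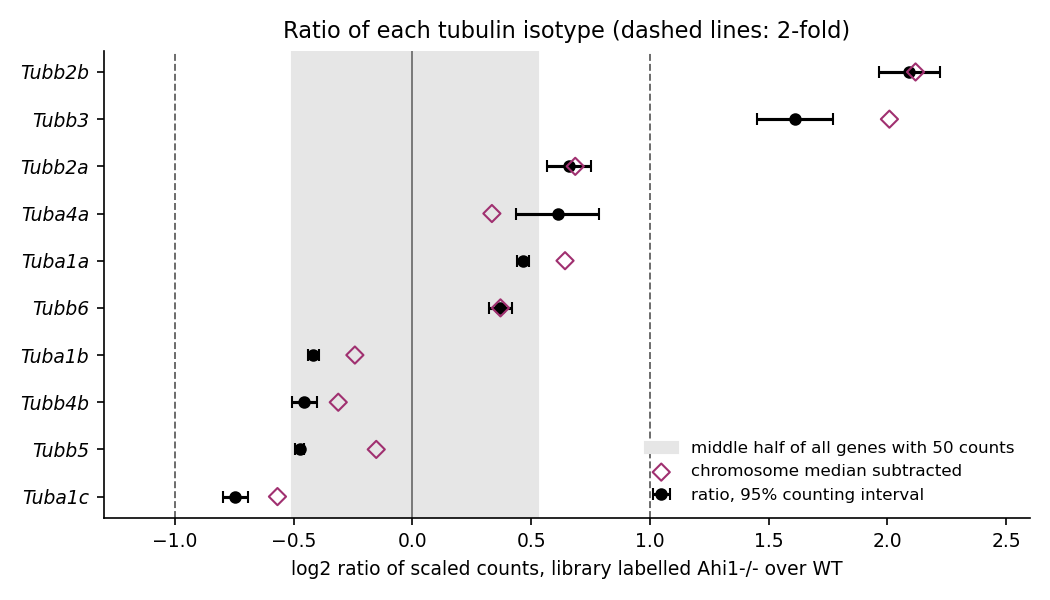
Log2 ratio of scaled counts, library labelled Ahi1-/- over WT, for each isotype (points, with 95% counting intervals), with the chromosome median subtracted (diamonds) and the interquartile range of all 12075 genes shaded. Tubb2b at 2.09 and Tubb3 at 1.61 are past the dashed 2-fold lines, and the diamond of Tubb5 is nearest to 0.

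Upstream sequence from RefSeq (GRCm38.p6) was examined for 8 of the 10 members. Tubb2b and Tubb6 were left out, so the motif counts below say nothing about them. The 250 bases before the start are shown for Tuba1a and Tuba1b, neighbours whose ratios had opposite signs, and for Tubb3, a member past 2-fold. They lie at chr15:98953502-98953751 (minus strand), chr15:98934391-98934640 (minus strand) and chr8:123411303-123411552 (plus strand). Capitals mark matches, on either strand, to CCAAT (the CCAAT box), to GGGCGG (the GC box), to TATAAA (the TATA box), to TTTCCCGC (an E2F site) or to the CArG box (the site of serum response factor), none of which overlap here.
Tuba1a: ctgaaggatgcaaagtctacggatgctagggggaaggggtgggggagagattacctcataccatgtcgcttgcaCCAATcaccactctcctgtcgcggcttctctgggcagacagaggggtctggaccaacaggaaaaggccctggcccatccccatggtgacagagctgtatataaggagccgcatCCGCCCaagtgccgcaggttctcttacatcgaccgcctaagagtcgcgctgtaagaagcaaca
Tuba1b: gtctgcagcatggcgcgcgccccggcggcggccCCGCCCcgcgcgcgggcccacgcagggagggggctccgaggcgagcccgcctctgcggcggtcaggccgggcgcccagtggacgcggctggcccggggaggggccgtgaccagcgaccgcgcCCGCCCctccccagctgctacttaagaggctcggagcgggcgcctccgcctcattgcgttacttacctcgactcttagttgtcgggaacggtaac
Tubb3: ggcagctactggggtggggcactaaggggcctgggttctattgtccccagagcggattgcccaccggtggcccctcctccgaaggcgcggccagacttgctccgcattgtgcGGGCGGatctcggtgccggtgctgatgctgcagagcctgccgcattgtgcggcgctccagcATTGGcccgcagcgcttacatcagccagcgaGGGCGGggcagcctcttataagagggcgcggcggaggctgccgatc
CCAAT was found in 5 of the 8 upstream windows and in 33.8% of 32851 windows of the same length. GGGCGG was found in 6 of 8 and in 32.7% of all, and TATAAA in 1 of 8 (Tubb2a) and in 12.4%. TTTCCCGC and the CArG box were in 0 of 8, and in 0.895% and 1.47% of all. Tuba1a held 1 CCAAT and 1 GGGCGG, Tuba1b 0 and 2, and Tubb3 1 and 2. A match describes exact letters only, and variant forms of the TATA box were not counted.

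The other tubulin genes were low in these cells, apart from the gamma tubulin gene Tubg1. Of 9 in the table, 7 were measured (10 or more counts over both libraries). Of the 5 with 50 counts in the higher library, 2 were called higher and 1 lower, against 16.0% and 10.3% of all genes, and with a minimum of 200 counts 0 were called higher. Tubb4a, a beta tubulin of brain, had 7 and 80 counts (0.37 and 4.38 TPM) and a log2 ratio of 3.50 (2.39 to 4.86). Tubg2, the minor gamma tubulin, had 10 and 131 counts (0.64 and 8.30 TPM) with a log2 ratio of 3.70 (2.77 to 4.79). Tube1, the epsilon tubulin of centrioles, had 343 and 126 counts and was 2.75-fold lower. The median of the 7, 2.16, rested on genes with few counts, and was 0.28 from log2(TPM + 1). Tubg1, the main gamma tubulin that seeds microtubules, had 78.4 and 66.8 TPM.

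Genes that nucleate microtubules had log2 ratios mostly between -1 and 0. Of 19 genes, 17 had a ratio below 0, against 50.7% of all measured genes. For 14 of them the counting interval also lay below 0, but the share of all genes with such an interval is not given here. The median was -0.56, against -0.01 over all measured genes. Haus5, a subunit of the augmin complex that branches microtubules, was the 1 gene called lower (630 and 290 counts, 2.19-fold), and 0 were called higher, against 10.3% and 16.0% of all genes. With counts scaled to the library totals, 4 were called lower. The proliferation markers given above were lower in the same library, and their part in these ratios was not tested. Tubulin folding genes, here the chaperonin, prefoldin, the tubulin cofactors, Arl2 and Ttc5, had 0 of 22 called in either direction, against the same shares of all genes. Their median was -0.23, and 15 had a ratio below 0, against 50.7% of all measured genes. Arl2, at 1.999-fold lower, was just short of a call. The chaperonin subunits Tcp1 (575 and 383 TPM) and Cct6a (395 and 323 TPM) had the most counts. Ttc5, which recognises nascent tubulin to trigger decay of its mRNA, had 26.2 and 20.1 TPM, a log2 ratio of -0.42 (-0.62 to -0.21).

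Of the enzymes that modify tubulin, 20 had 50 counts in the higher library. By the 2-fold rule 2 of these were higher and 2 lower, near the 16.0% and 10.3% of all genes, and the median log2 ratio over 23 measured genes was -0.11. Agbl5, a carboxypeptidase that removes branch-point glutamates, had 615 and 221 counts and was 2.81-fold lower. Vash1, a tyrosine-removing carboxypeptidase, had 148 and 73 counts, 2.05-fold lower. From TPM or with upper-quartile scaling, 1 modifying enzyme and not 2 was called lower, because Vash1 missed the 2-fold line. Ttll11, a ligase that extends glutamate chains, had 23 and 89 counts (log2 1.94, 1.26 to 2.67). Agbl2 had 0 counts in WT and 51 in the other library. It was 16.8-fold higher with WT set to a floor of 3 counts per library, and the lower 95% limit of its log2 ratio was 3.72.

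For microtubule-binding proteins the calls were also near the background. Of 33 genes with 50 counts in the higher library, 5 were higher and 3 lower by the 2-fold rule, against 16.0% and 10.3% of all genes. The median log2 ratio over 40 measured genes was 0.24. Stmn2 led the list with 1 and 197 counts (log2 7.61, 5.11 to 12.92). With WT at the same floor, Map10 (0 and 108 counts) was 35.7-fold higher, with a lower 95% limit of 4.83 on the log2 scale. Map7d3 (0 and 72 counts) was 23.8-fold higher, with a lower limit of 4.24. Map2, a dendrite protein, had 9 and 167 counts (log2 4.20, 3.24 to 5.35), and Map1a had 199 and 2921 counts (log2 3.86, 3.65 to 4.08). The 3 lower genes were named after their values were seen. They were Stmn1, the stathmin of dividing cells that sequesters tubulin dimers (818 and 223 TPM, 3.80-fold lower), the severing protein gene Fignl1 (2.85-fold lower) and Mid1 (2.08-fold lower).

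**Figure D4:**
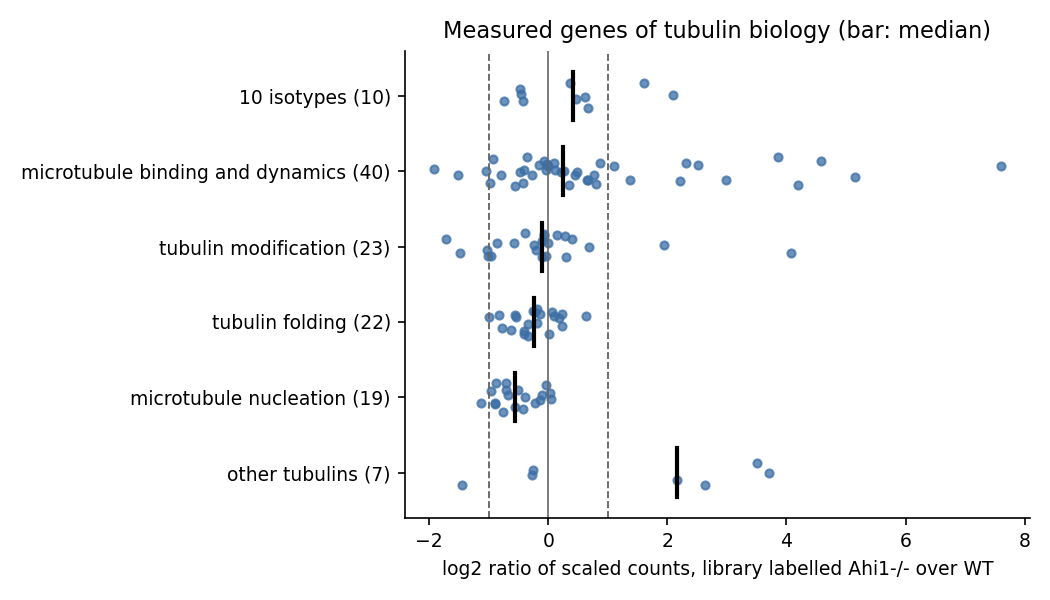
Log2 ratio of scaled counts, library labelled Ahi1-/- over WT, for the measured genes of each list, with 1 point per gene, the number of genes in brackets and a bar at the median. The nucleation genes have a median of -0.56, while the microtubule-binding genes spread from Stmn1 at -1.93 to Stmn2 at 7.61.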

How the data were processed

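Messenger RNA was measured in 2 MEF libraries, 1 per genotype. The authors deposited expected counts and TPM for 17260 genes (per the file headers, columns of read counts and of TPM), and FPKM for 3872 genes in another deposited table, in which every gene above 0 in both libraries was at least 2-fold apart. Tools listed in the submitters' processing notes are RSEM 1.2.12, HISAT2 2.0.4 and Bowtie2 2.2.5, with build mm8 and no roles given. Annotation, strand use and filters are not stated there.

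Expected counts were rounded to whole numbers and scaled by TMM (edgeR 4.0.16, R 4.3.3). Ratios carry exact Clopper-Pearson 95% intervals (scipy 1.17.1) for counting error, and zeros were replaced by a floor of 3 counts. The calculation was tested on simulated counts with counting error only, which held no variation between cultures and no division of shared reads. Chromosomes came from GRCm38.p6, in which 17210 gene identifiers were found. Coding identity (global alignment, Biopython 1.88) and shared windows used the GENCODE M21 transcript with the longest coding sequence. Members, lists and alternatives were chosen with earlier results of these data known.

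Genes named were Ahi1, the members, up to 5 genes of each tubulin-related list with the largest absolute ratio among those called (otherwise the 2 with the most counts), and markers. Other genes were named after their values were seen. Endothelial markers summed to 1.19 and 1.39 TPM, leukocyte markers to 13.2 and 13.0 and red cell markers to 23.6 and 0.75 (WT first). Alternatives covered scaling, TPM, chromosome medians, fold, count minimum and the total behind shares.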

Additional observations from a re-analysis of the deposited data

How the results depend on the processing

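No member changed sign under any scaling, TPM or chromosome alternative, and the farthest any member lay from its main log2 value was 0.399 (Tubb3, chromosome median subtracted). At 1.5-fold, 4 members were higher and 1 lower, in place of 2 and 0. The summed alpha log2 ratio of -0.10 was -0.21 with total counts, -0.043 with upper-quartile scaling, -0.039 with summed TPM and 0.076 with chromosome medians subtracted. For beta, -0.24 became -0.354, -0.187, -0.126 and -0.002. Total counts moved the median of all genes from -0.04 to -0.16. The Tuba1a share difference of 9.62 points was 8.76 from counts and 15.1 within its family, and that of Tuba1b, -6.17, was -4.35 and -11.6. Over all genes, 1.5-fold gave 2606 lower and 3-fold 510, a minimum of 200 counts gave 1266 higher, and no minimum gave 3444 higher and 2538 lower. In the tubulin-related lists, total counts gave 4 nucleation, 1 folding and 5 binding genes lower in place of 1, 0 and 3, and chromosome medians 2 nucleation genes. Binding genes called higher numbered 11 at 10 counts and 1 at 200, in place of 5. At 1.5-fold, 9 nucleation and 4 folding genes were lower. Of 226 other values, 70 moved by more than their counting interval or 1.5 times, and 0 changed sign after a call. Depth limits the genes under 50 counts. No paired analysis was possible because each group had 1 library.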
